A study of Homo sapiens with 4 samples.

Results

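The nucleolar genes described here are NCL, FBL, PES1, RBM19, RMRP and the noncoding snoRNA hosts GAS5, SNHG5 and SNHG17. They are 8 of the 57169 gene symbols in the deposited annotation. They were chosen by symbol, with no threshold on a measured value but with earlier results of these data known. Every splicing event carrying one of these symbols and every listed peak overlapping one of these genes was taken. This gave 7 of 471 splicing events, in 6 of 353 genes with an event, and 2 of 57 peaks in wild-type cells (WT) and 1 of 30 in ZCCHC7-overexpressing cells (OE). NCL, GAS5 and SNHG5 contributed 4 of the 264 retained introns, FBL and SNHG17 alternative 5' splice sites, and PES1 an alternative 3' splice site. RMRP and RBM19 had peaks and no splicing event.

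The cells were RKO, an established human colorectal cancer line, with the genotype given either as wild type or as ZCCHC7-OE. The labels named neither a vector, a clone nor a control construct. Each genotype had 1 input library and 1 immunoprecipitate (IP), so nothing was replicated. The sample characteristics gave an antibody against ZCCHC7 for the IP, whereas the protocol described antibodies against SRSF1 and m6A, so the target of the IP is not stated here. The peak headers gave 896288 IP tags in WT and 2725742 in OE. Each splicing cell held 2 values per genotype that no source assigned to a library. They are called first and second values and are kept apart. First values held 3016 counts in WT and 913 in OE over all events, and second values 817 and 1519. Sample 1 of each table was taken to be OE and sample 2 to be WT, since the comparison is named OE versus WT. None of the 19 epithelial, fibroblast, endothelial or leukocyte markers had a peak or an event, so the cell type could not be checked from these files. ZCCHC7 had none either.

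The nucleolus makes ribosomes. RNA polymerase I transcribes a long precursor there, which nucleases cut and trim while small nucleolar ribonucleoproteins guide its modification. Most human snoRNAs are not transcribed on their own: they are released from introns of host genes after splicing, so a retained intron in a host keeps the snoRNA inside the transcript. ZCCHC7 is known as a zinc-knuckle cofactor of the nuclear exosome, the nuclease complex that trims and degrades many of these RNAs.

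One of the event boundaries lay within the RefSeq sequences used here (GRCh38.p14), that of SNHG5. It is shown because the retained intron of this host begins at it. The stretch lies on the minus strand at chr6:85678684-85678713 and holds the last 20 bases of exon 1 and the first 10 of the intron, with the first 2 intron bases in capitals.

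SNHG5 5' splice site: agcgtctgggcgggtggtagGTgagtgggt

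The capitals are the GT with which most human introns start. They fell exactly at the intron boundary given by the splicing table.

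Inclusion in a retained-intron event means reads from the unspliced form, and skipping means reads across the spliced junction. In all 456 events outside mutually exclusive exons, the length given for the inclusion form was the skipping length of 149 bases plus the whole alternative stretch. The length of the inclusion form thus took in the body of the intron, and a read inside a retained intron could not be told apart from one across its edge. Inclusion shares below are shares of counts, with exact Clopper-Pearson 95% intervals that cover counting error only. Overlap of such intervals is not a test and does not show that shares are equal.

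NCL encodes nucleolin, an abundant nucleolar RNA-binding protein needed for transcription and early processing of the ribosomal precursor. The first WT value held 0 inclusion and 30 skipping counts and the second held none. In OE the first value held 1 inclusion and 3 skipping counts, and the second 6 and 1. Reads of the spliced form thus made up all WT counts, while 6 of the 7 unspliced OE reads lay in the second value. Over all 264 retained introns the inclusion share of first values was 16.3% in WT and 34.4% in OE. In second values it was 52.85% in WT and 84.8% in OE, so the second OE value was mostly inclusion in general. The NCL share was 0% in WT (0 to 11.6, 30 counts), 25% in the first OE value (0.631 to 80.6, 4 counts) and 85.7% in the second (42.1 to 99.6, 7 counts). The intervals of the first values overlapped, and the second OE value had no WT counts to stand beside. Corrected for form length, as in the authors' deposited table, the OE levels were 6.13% and 54.1%.

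The event retained intron 7 of transcript NCL-201 (ENSG00000115053, chromosome 2, 231458390 to 231459000), 611 bases long, between exons 7 and 8 of 14. Both exons are coding there. It is annotated as kept in 1 of 10 NCL transcripts, NCL-207. NCL is itself a snoRNA host. SNORD82 lies in intron 5 (231460371 to 231460440), SNORD20 in intron 11 (231456444 to 231456523) and SNORA75 in intron 12 (231455800 to 231455936). The retained intron was none of these 3 and held no snoRNA gene in the deposited annotation or in RefSeq.

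**Figure D1:**
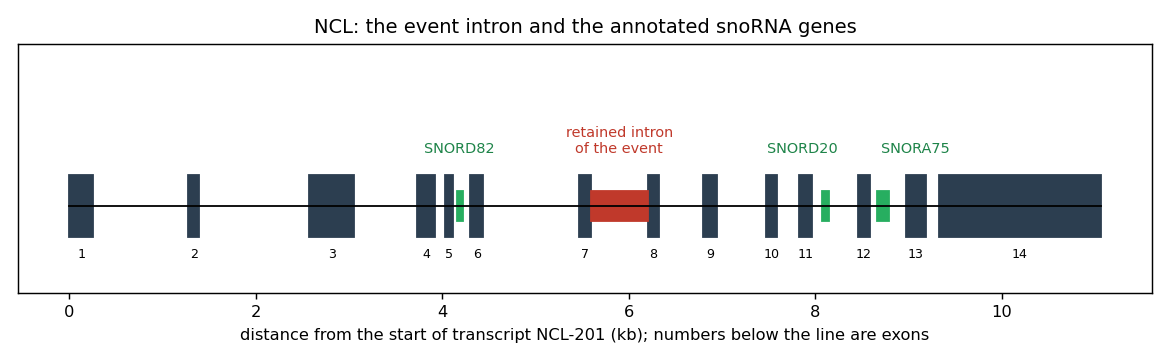
Map of transcript NCL-201, with the distance from its start in kilobases on the x axis, exons as dark boxes, the retained intron of the event in red and annotated snoRNA genes in green. The red intron, number 7, holds no snoRNA gene; SNORD82, SNORD20 and SNORA75 lie in introns 5, 11 and 12.

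An exact two-sided conditional test set OE against WT, within the first values and within the second, over all events with at least 10 counts in each genotype. It compares these libraries, not the conditions, and takes the order of the values to mean the same in WT and OE. Of 32 tested events 1 passed after Benjamini-Hochberg adjustment over all of them (3.12%), with 4 at an unadjusted p under 0.05 (12.5%). With their counts 13 of the 32 could have reached an unadjusted p of 0.05, so these shares and the adjustment run over 19 events that could not. NCL and FBL were the 2 member events tested, and neither passed. NCL had an exact p of 0.118 (adjusted p = 0.538), which was also the smallest this test could give with its counts. With both values of a genotype added, as Fisher's exact test, the NCL difference passed (adjusted p = 0.00047), among 9 of 32 events (28.1%), with 13 at an unadjusted p under 0.05 (40.6%). With the order of the OE values turned it passed the exact test too (exact adjusted p = 3.21e-05), among 11 of 32 (34.4%), 10 of them higher in OE (31.2%). The NCL call therefore depends on how the unassigned values are matched.

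FBL encodes fibrillarin, the methyltransferase of box C/D snoRNPs, which modifies ribosomal RNA at sites chosen by the snoRNA. Its event lay at the end of exon 2 of FBL-201 (ENSG00000105202, chromosome 19, 39840617 to 39840619), where alternative 5' sites lie 3 bases apart. Inclusion is use of the site that keeps the 3 bases. The first WT value held 110 inclusion and 3 skipping counts and the second 0 and 3. The first OE value held 23 and 5, and the second none. The longer form thus led in both first values, and the shorter form took a larger share in OE, 17.9% (6.06 to 36.9, 28 counts) against 2.65% in WT (0.551 to 7.56, 113 counts). These intervals overlapped slightly.

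The odds of the longer form in the first values were 0.128 times as high in OE as in WT (exact 95% interval 0.0186 to 0.711). The exact p was 0.00807 before and 0.129 after adjustment over the 32 events, so the difference did not pass. Only the first values had counts from both genotypes. The second WT value ran against it, with all of its 3 counts from the shorter form. Over the 15 events with 10 first-value counts in each genotype the adjusted p was 0.121, and none of the 15 passed (0%), with 2 at an unadjusted p under 0.05 (13.3%) by Fisher's exact test. Adjusted within alternative 5' sites alone, the exact adjusted p was 0.0161, and with each class adjusted apart 2 of 32 events passed. With a minimum of 20 counts, which left 6 events, the exact adjusted p was 0.0484, and 1 of the 6 passed. The exact p before adjustment stayed at 0.00807 in both settings, so the lower adjusted values came from adjusting over fewer events. With the order of the OE values turned the direction reversed (exact adjusted p = 0.0362). That outcome rests on the 3 counts of the second WT value, set against the first OE value. The 113 counts of the first WT value then had no OE counts beside them.

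The 3 bases are coding bases 179 to 181 of 963 in FBL-201, across codons 60 and 61 of 321. Leaving them out keeps the reading frame. The longer form is annotated in 3 FBL transcripts and the shorter in 1, FBL-203. Of all 471 events 8 had forms 3 bases apart, 7 of them 3' sites, and FBL was the only 5' site. Their counts lay almost wholly in first values, 297 of 305 in WT and all 86 in OE. Among the 8, PTMA was the other tested event. Its shorter form took 84.2% of first-value counts in WT and 83.3% in OE, against 2.65% and 17.9% in FBL. The rest had too few counts to be tested, and their shares differed between WT and OE in either direction.

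PES1 encodes pescadillo, a subunit of the PeBoW complex that matures the large ribosomal subunit. Its 3' splice sites at exon 14 of PES1-201 (ENSG00000100029, chromosome 22, 30578996 to 30578998) are also 3 bases apart, and the bases make up codon 503 of 583. The first values held 21 inclusion and 2 skipping counts in WT and 6 and 0 in OE, and the second values none. The longer form led in both genotypes, with 91.3% (72.0 to 98.9) in WT and 100% (54.1 to 100) in OE. The intervals overlapped, and 6 counts in OE left the event under the minimum. No test was made at that minimum. The shorter form is annotated in 1 of 13 PES1 transcripts, PES1-208.

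**Figure D2:**
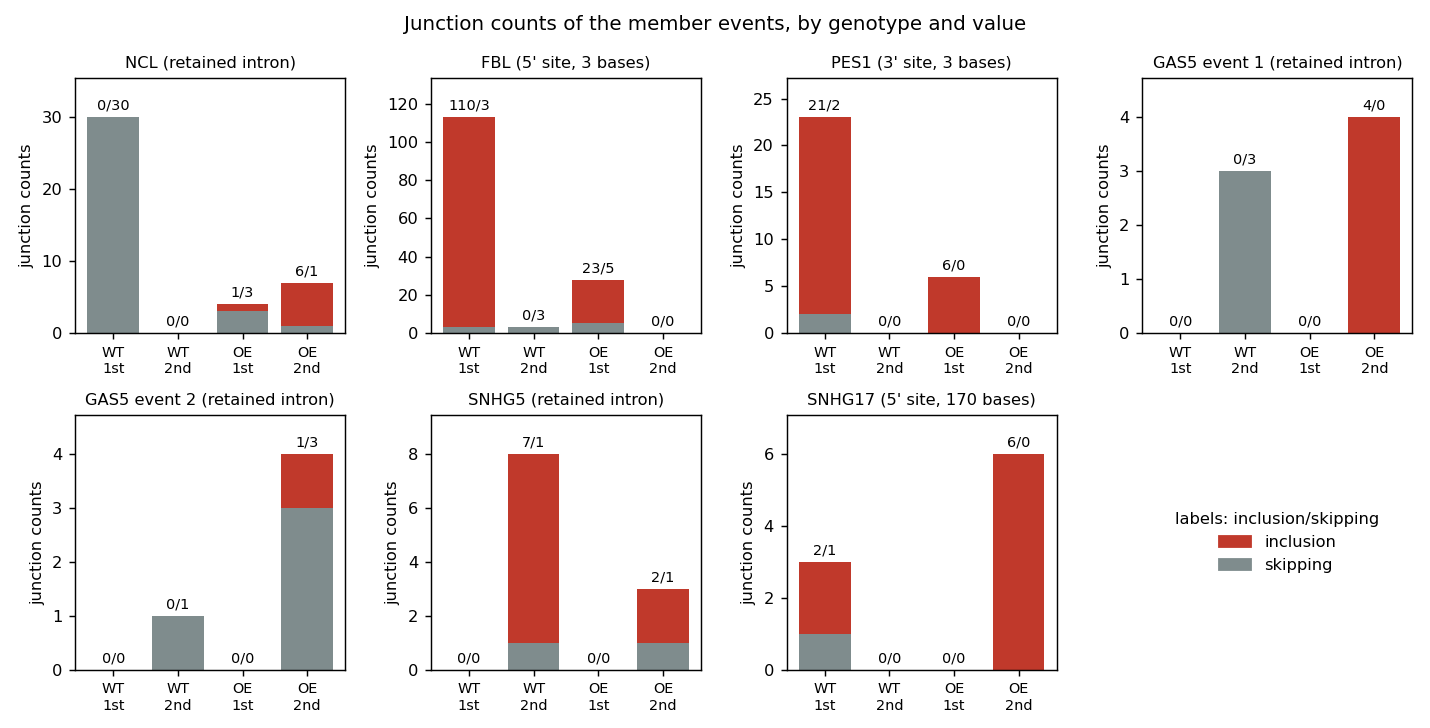
Inclusion and skipping counts of the 7 events, labelled junction counts on the axes, 1 panel per event with its own y axis. Bars stand for the first and second value of WT and OE. Red is inclusion, grey is skipping, and labels give inclusion/skipping. Inclusion counts may take in reads inside the alternative stretch. NCL has 30 skipping counts in the first WT value, FBL changes from 110/3 to 23/5 in first values, and GAS5 and SNHG5 have counts in second values alone.

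GAS5 is a noncoding host that carries a series of box C/D snoRNAs in its introns and is spliced into a short-lived RNA. It had 2 retained-intron events. Event 1 (ENSG00000234741, chromosome 1, 173866568 to 173866760, 193 bases) lies between exons 3 and 4 of GAS5-201, and event 2 (173865895 to 173866176, 282 bases) between exons 5 and 6. In event 1 the second values held 0 inclusion and 3 skipping counts in WT and 4 and 0 in OE. All WT counts were spliced and all OE counts unspliced. The shares of 0% (0 to 70.8) and 100% (39.8 to 100) rest on 3 and 4 counts, and their intervals overlapped. With these counts the smallest p that the exact conditional test could give was 0.0286 before adjustment. Event 2 held 0 and 1 in WT and 1 and 3 in OE, so the spliced form led in both. Its shares were 0% (0 to 97.5) and 25% (0.631 to 80.6), the latter 10.3% after correction for form length. First values were empty in both events, and neither reached the minimum. Over all retained introns the inclusion share of second values was also higher in OE, 84.8% against 52.85% in WT.

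Both GAS5 introns host a snoRNA. RefSeq places SNORD76 inside the intron of event 1 and SNORD44 inside that of event 2. These are box C/D snoRNAs, which guide methylation of ribosomal RNA. RefSeq lists 11 snoRNA genes within GAS5, while the deposited annotation lists none there. By the deposited annotation, therefore, 0 of the 7 events held a snoRNA gene, and by RefSeq 2 did. Over all 471 events 14 held one by the deposited annotation and 18 by RefSeq, most of them retained introns (12 of 14 and 16 of 18). The deposited count took snoRNA genes on the strand of the event alone, and the RefSeq count those on either strand. Reads of these snoRNAs, if sequenced, would fall within the counted inclusion form and could not be told apart from retained introns.

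SNHG5 hosts the box C/D snoRNAs SNORD50A and SNORD50B. Its retained intron (ENSG00000203875, chromosome 6, 85678189 to 85678693, 505 bases) follows exon 1 and starts at the GT printed above. The second values held 7 inclusion and 1 skipping counts in WT and 2 and 1 in OE, and first values none. The unspliced share of counts was 87.5% (47.3 to 99.7) in WT and 66.7% (9.43 to 99.2) in OE. Corrected for form length the levels were 61.5% and 31.3%, so the spliced form then led in OE. The difference ran opposite to NCL and to GAS5 event 1 and lay within the counting intervals. It also ran opposite to the second values of all retained introns, with 52.85% inclusion in WT and 84.8% in OE. The intron holds no snoRNA gene. SNORD50B lies 530 bases past its far end. In the annotation, 3 of 23 SNHG5 transcripts keep the whole intron within an exon and 5 splice it as in the event.

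SNHG17 hosts the box H/ACA SNORA71 family, which guides pseudouridylation. Its event was a 5' site choice in exon 1 (ENSG00000196756, chromosome 20, 38435027 to 38435196), where inclusion adds 170 bases. WT had 2 inclusion and 1 skipping counts, all in the first value, and OE had 6 and 0, all in the second. The genotypes thus shared no value with counts, and no comparison within a value was possible. The shares were 66.7% (9.43 to 99.2) and 100% (54.1 to 100), and correction for form length brought the former to 48.3%. The nearest snoRNA gene, SNORA71D, lies 628 bases past the intron.

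**Figure D3:**
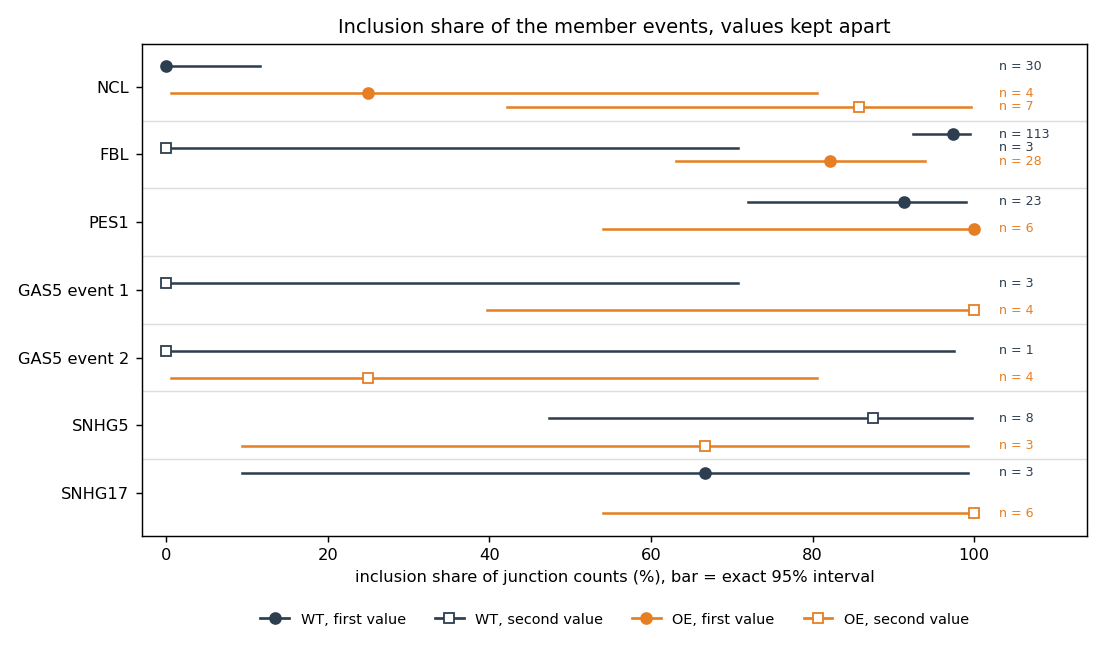
Inclusion share of counts in percent (x axis) for each event, by genotype (dark WT, orange OE) and value (filled circle first, open square second). Exact 95% intervals are drawn, with the number of counts n at the right. Most intervals are wide: the narrowest belong to NCL and FBL in the first WT value, with 30 and 113 counts.

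The members differed in which value held their counts. Second values held 2.59% of FBL counts in WT and 0% in OE, and none of PES1 in either genotype. They held all counts of GAS5 and SNHG5 in both genotypes. NCL had 0% in WT and 63.6% in OE (30.8 to 89.1, 11 counts), and SNHG17 had 0% of 3 counts in WT and 100% of 6 in OE. Over all events second values held 21.3% in WT and 62.5% in OE, so NCL in OE lay near the share of all events. In all 9 events of genes not annotated as protein-coding, second values held 41.7% of counts in WT and 80% in OE. In the 462 events of protein-coding genes they held 21.1% and 62.2%. The 5 of the 9 outside the members had 3 of 21 counts in second values in WT (14.3%) and 7 of 13 in OE (53.8%). No test of coding against noncoding genes was made. In GAS5 and SNHG5 all 3 events had counts in second values alone in both genotypes, as had 69 of 471 events (14.6%). PES1 had them in first values alone, as had 77 of 471 (16.3%). The event class differed too: NCL alone among the coding members had a retained intron, and retained introns as a whole had 29.9% of counts in second values in WT and 78.6% in OE. The part of event class in these positions was not tested.

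**Figure D4:**
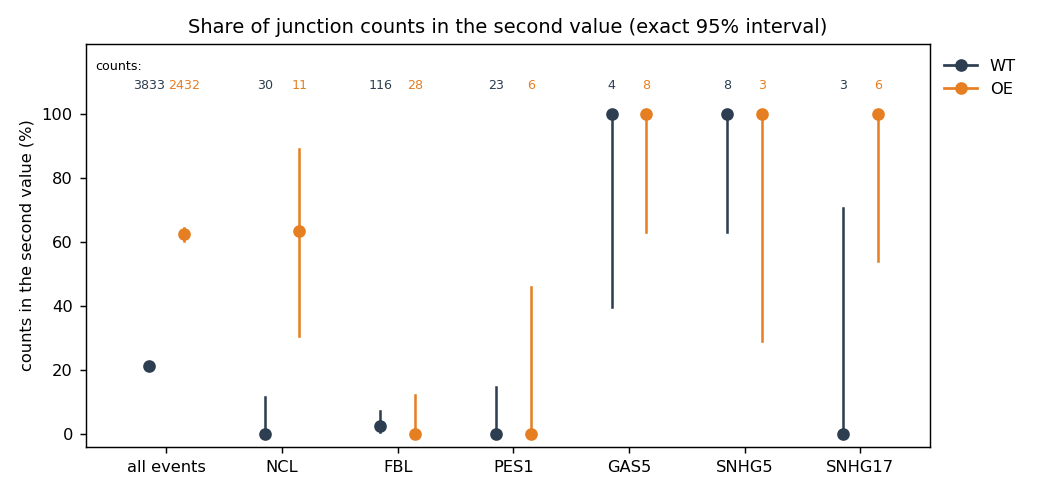
Share of counts in the second value, in percent, for all events and for each gene with an event, in WT (dark) and OE (orange). Exact 95% intervals are drawn, and the counts behind each point stand at the top. FBL and PES1 lie near 0%, GAS5 and SNHG5 at 100%, and NCL and SNHG17 differ between the genotypes.

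As a share of all listed counts of a value, FBL took 3.75% of the first WT value (3.1 to 4.49) and 3.07% of the first OE value (2.05 to 4.4). PES1 took 0.763% (0.484 to 1.14) and 0.657% (0.242 to 1.43). NCL took 0.995% (0.672 to 1.42) and 0.438% (0.12 to 1.12). The intervals overlapped in each of these genes. In second values GAS5 took 0.49% in WT and 0.527% in OE. SNHG5 took 0.979% (0.424 to 1.92) in WT and 0.198% (0.0408 to 0.576) in OE, with intervals that overlapped. No test between the genotypes was made on them. These shares count only reads at listed events and are not expression levels.

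In the authors' deposited table all 7 events had a p of 1 and an FDR of 1, as had 97.5% of the 471 events for the p. Events with FDR under 0.05 made up 0.212%. The authors' differences in inclusion level, OE minus WT, were 0.301 in NCL, 0.331 in FBL, 0.089 in PES1, 1 and 0.103 in the GAS5 events, -0.302 in SNHG5 and 0.517 in SNHG17. They average the 2 values of a genotype where both had counts. In FBL the positive sign therefore rests on the second WT value of 0 from 3 counts, whereas the levels in the first values were 0.973 in WT and 0.818 in OE.

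RMRP is the RNA of RNase MRP, the ribonucleoprotein that cuts the ribosomal precursor between its small- and large-subunit parts. It was the 1 member with a peak in both lists. The WT peak (chromosome 9, 35657609 to 35658004, 396 bases) held 106 IP tags at its summit (86.8 to 128, exact Poisson 95%), and the OE peak (35657605 to 35658010, 406 bases) held 89 (71.5 to 110). The raw counts were close, while the OE library was 3.04 times as deep. Per 1000000 IP tags the level was 118.3 in WT and 32.7 in OE, a ratio of 0.276 (0.206 to 0.369).

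RMRP was not alone in this: depth-scaled tags were lower in OE beyond the interval at 12 of the 16 peaks shared by the lists (75%) and higher at 2, with a median ratio of 0.317. Without the peaks at SAE1 and its pseudogene it was 3 lower (42.9%) and 2 higher of 7, with a median of 0.789. Both sets include the RMRP peak itself, as 1 of the 12 and 1 of the 3 lower peaks. Set against local input, IP over input was 12.3 in WT from 2 input tags and 12.96 in OE from 1, a ratio of 1.05 (0.054 to 62.9; exact p = 1). Input depth was too low to show a difference at RMRP.

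The peaks covered nearly all of RMRP (35657751 to 35658018 on the minus strand, 268 bases), 94.8% of the gene in WT and 97% in OE. Their summits lay 177 and 150 bases from its 5' end, 27 bases apart. Both ran past the 3' end of the gene, by 142 and 146 bases, and no other annotated gene lay under them, apart from a second entry for RMRP itself. In the authors' lists the fold over background was 8.52 in WT, rank 13 of 57, and 6.98 in OE, rank 11 of 30. Both had q under 0.05, as had 40.4% of WT and 50% of OE peaks. The annotation also holds the related locus RMRPP5.

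**Figure D5:**
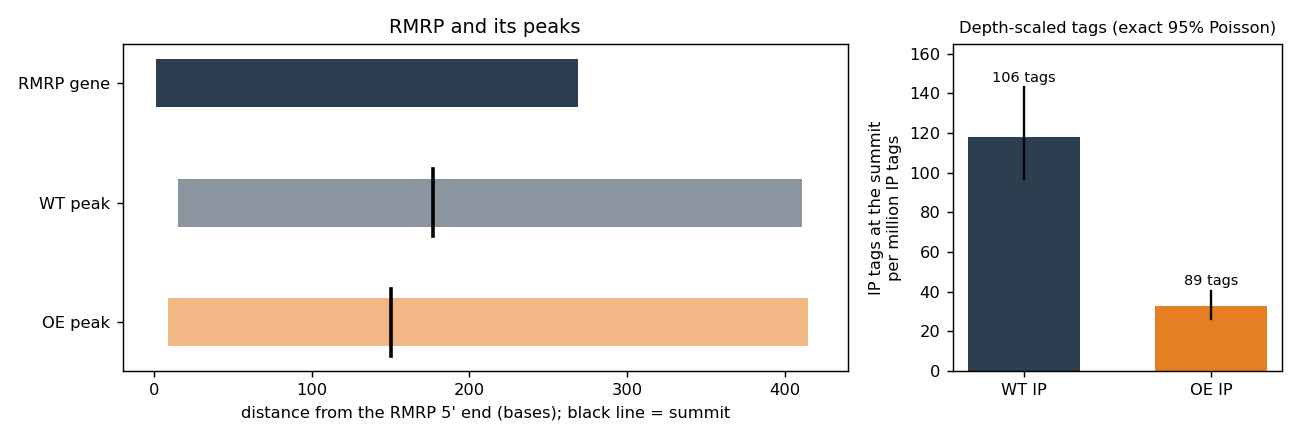
Left, the RMRP gene and its WT and OE peaks by distance from the 5' end of RMRP in bases, with black lines at the summits; right, IP tags at the summit per 1000000 IP tags, with exact 95% Poisson intervals and the raw tags above. The peaks nearly coincide, and 106 WT and 89 OE tags become 118.3 and 32.7 when scaled.

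RBM19 encodes an RNA-binding protein with several RNA recognition motifs that acts in maturation of the small ribosomal subunit. It had a peak in WT only (chromosome 12, 113926934 to 113927340) with 22 tags (13.8 to 33.3), 24.5 per 1000000, over 1 input tag. Exon 17 of 24 in RBM19-201, wholly coding, filled 176 of its 407 bases, and the other 231 lay in flanking introns. The summit was inside the exon, 17 bases from its 5' end. The peak was weak: its fold of 3.05 in the authors' list ranked 36 of 57, and its q was not under 0.05. The OE list held no RBM19 peak, so its level in that IP was not analysed here. Of the 57 WT peaks 16 were shared with the OE list, so most were in WT only.

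Other genes of the pathway are listed here beside the whole annotation, in which 353 genes among 57169 gene symbols had a splicing event. With members included, 2 of 4 annotated genes of the box C/D core had an event. For ribosome assembly it was 4 of 65, and for the noncoding hosts 4 of 25. Members and lists were chosen with earlier results known, so these shares were not tested against that of all genes. The box C/D core list had 1 event besides FBL, in SNU13, and the box H/ACA core list had none. The ribosome assembly list of 65 annotated genes had events in DDX54 and NOP16 besides NCL and PES1. The RNase MRP and RNase P list had one in RPP21 and the exosome list one in EXOSC2. The RNA polymerase I list had none, and the 25 noncoding hosts had, besides GAS5, SNHG5 and SNHG17, one in LRRC75A-AS1, also named SNHG29. None of these 6 further genes had a tested event, and none had a peak. LRRC75A-AS1 retained an intron that holds SNORD49A, with 1 inclusion and 2 skipping counts in the first WT value and 2 and 0 in the second OE value, so its genotypes shared no value with counts. DDX54, an RNA helicase of the nucleolus, had 25 inclusion and 1 skipping counts in the first WT value and 4 and 0 in OE. SNU13, which binds the box C/D fold, had 2 inclusion counts in each WT value and 2 skipping counts in the second OE value. Across these lists the 2 tested events were those of NCL and FBL, with 0 passing when the values were kept apart and 1, NCL, when they were added.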

How the data were processed

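RNA of 4 RKO libraries (input and IP, WT and OE, 1 each) was sequenced. The authors called peaks with MACS 2.1.0.20150420 at a p cutoff of 0.005, per the file headers; the deposited lists give a pileup signal, a fold ratio, and −log10 p and q values. FastQC 0.11.5 and HOMER stand in the submitters' processing notes. Of the aligner, the splicing tool and the genome build nothing is stated in the sources at hand. The deposited splicing tables give inclusion and skipping counts with 2 values per genotype, and form lengths. They also give the authors' p-value and FDR per event, and a level difference score. The 8 genes matched RefSeq on GRCh38.p14 by position. From the files, IP tags were recovered as pileup times the ratio of IP to input tags (whole within 0.1); input tags from pileup and fold (whole within 0.01). Exact tests were run with SciPy 1.17.1, tested on simulated data, with a minimum of 10 counts per genotype and a threshold of 0.05. The tested counts were not length-corrected. Alternatives were added values, single values, turned order, minimums of 5 and 20, and adjustment within class. Members, gene lists and tests were chosen with earlier results of these data known. All members were named by rule; other genes only if they were in a fixed list and had an event or peak. PTMA, SAE1 and RMRPP5 were named after the data were seen. Processed pseudogenes of NCL and PES1, and FBLL1, are annotated, so the split of reads with them is uncertain. Listed symbols that the annotation lacks were looked up through RefSeq synonyms.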

Additional observations from a re-analysis of the deposited data

How the results depend on the processing

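With values kept apart, 0 of 2 tested member events and 1 of 32 tested events passed. Adding the values gave 1 of 2 member events and 9 of 32 in all. Turning the order of the OE values gave 2 of 2 and 11 of 32, and adjusting within class 1 of 2 and 2 of 32. A minimum of 20 counts gave 1 of 1 and 1 of 6, and a minimum of 5 counts 0 of 3 and 4 of 90. First values alone gave 0 of 1 and 0 of 15. Second values alone left no member event to test, and 1 of 5 events in all passed. Turning the order reversed the direction in FBL (exact adjusted p = 0.0362), which rests on 3 WT counts. Correction for form length kept the 16 inclusion shares inside their intervals, which are too wide to show stability: it moved SNHG5 in OE from 66.7% to 31.3%, GAS5 event 2 in OE from 25% to 10.3%, SNHG17 in WT from 66.7% to 48.3%, and NCL in OE from 25% to 6.13% and from 85.7% to 54.1%. The RMRP ratio of 0.276 became 0.84 without depth scaling and reversed to 1.05 against input, which rests on 1 and 2 input tags. Member peaks numbered 3, and 2 with q under 0.05. RefSeq, an alternative chosen after seeing the data, placed 2 snoRNA genes inside member introns against 0. No paired analysis was possible because the labels give no replicate numbers and each group holds 1 library, so none could be left out.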
